A study of Rattus norvegicus with 12 samples.

Results

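The levels of 10 transcripts of the circadian clock and its direct output were followed in rat liver. They are the activators Bmal1 (also called Arntl), Npas2 and Clock, the repressors Cry1, Per2, Nr1d1 and Nr1d2, and the PAR-domain factors Dbp and Tef with their opponent Nfil3. The genes were chosen by name, with earlier results of these data known. Every array probe whose RefSeq accession belongs to such a gene was taken, which gave 13 probes, of which 12 passed the filter on dim probes. All 10 genes were tested, among 21874 genes in all. Of these 21874, 11400 had a gene symbol. Each accession without a matched symbol was counted as a gene of its own, so a gene can be counted more than once. Shares and percentiles of all genes below use this total. The study fed adult male Wistar rats, an outbred laboratory strain, for 4 weeks on diets of equal energy content in order to relate metabolites that respond to a lack of protein to the liver's enzymes. The 6 low protein rats ate 5% casein and the 6 control rats ate 14% casein. Total RNA of each liver was hybridised to a single-colour Agilent array, 1 rat per array. The time of day at which each liver was taken is not given in the sources used here. Nothing in the labels ties a low protein rat to the control rat of the same number.

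The clock is a feedback loop in which BMAL1 pairs with CLOCK or NPAS2, binds E-box sequences and switches on the Per, Cry, Nr1d and PAR-factor genes. PER and CRY proteins then block the activators, and NR1D1 and NR1D2 (the REV-ERB receptors) repress Bmal1, Npas2, Cry1 and Nfil3 through ROR elements. In liver, transcripts of the Bmal1 phase and of the Dbp phase therefore peak at opposite times of day, and DBP, TEF and the repressor NFIL3 pass the rhythm on to metabolic genes through D-box sequences.

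The promoter stretches below are shown because they hold the letters of the 3 element types through which these genes act on each other. They are RefSeq sequence of the GRCr8 assembly, written on the gene's strand, with the matched element in capitals and position -1 as the last base before the annotated start. Of the 10 genes, 9 matched the promoter table, all but Cry1, with 11 entries of 300 bases each.
Bmal1 (chr1:176766228-176766327, plus strand, positions -100 to -1): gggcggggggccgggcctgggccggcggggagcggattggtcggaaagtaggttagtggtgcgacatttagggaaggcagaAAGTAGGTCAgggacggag
Per2 (chr9:99497030-99497205, minus strand, positions -212 to -37): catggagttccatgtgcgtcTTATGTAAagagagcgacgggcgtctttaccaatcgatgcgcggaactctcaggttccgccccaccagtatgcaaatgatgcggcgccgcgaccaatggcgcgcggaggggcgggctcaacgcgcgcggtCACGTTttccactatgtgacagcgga
Nr1d1, upstream start (chr10:84231934-84232033, minus strand, positions -221 to -122): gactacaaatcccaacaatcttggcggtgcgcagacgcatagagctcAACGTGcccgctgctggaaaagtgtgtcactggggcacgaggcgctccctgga
Nr1d1, downstream start (chr10:84229593-84229692, minus strand, positions -238 to -139): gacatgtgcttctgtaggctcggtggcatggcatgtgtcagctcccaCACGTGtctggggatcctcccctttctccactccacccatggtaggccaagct
Tef (chr7:115206582-115206681, plus strand, positions -245 to -146): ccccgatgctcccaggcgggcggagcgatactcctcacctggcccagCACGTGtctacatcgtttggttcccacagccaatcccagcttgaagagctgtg

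Each motif was searched on both strands, and the matches did not overlap one another. The E-box CACGTG lay at position -198 in Tef and at position -191 in the downstream Nr1d1 entry, and 6.42% of all 33469 promoter entries held it. The related E'-box CACGTT lay at position -62 in Per2. Its reverse complement AACGTG lay at position -174 in the upstream Nr1d1 entry, and 4.83% of all entries held this motif. The D-box, searched as TTATGTAA or TTACGTAA, lay at position -192 in Per2 and in 1.01% of all entries. The ROR element, AAN followed at once by TAGGTCA, lay at position -19 in Bmal1, and 0.245% of all entries held it. These matches describe letters in a window and say nothing of binding in these livers.

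Levels are log2 of the processed signal less the array's 75th percentile, so 0 is the 75th percentile and 1 unit is a doubling; a level is compared between rats of the same probe only. Of 58717 non-control spots, 61.2% to 69.9% were well above background on low protein arrays and 65.0% to 67.8% on control arrays. No spot was saturated. The 75th percentile signal was 942 to 1317 on low protein arrays and 944 to 1305 on control arrays. Slide 1 held low protein rats 1 to 4 and control rats 1, 3, 5 and 6, and slide 2 held the other rats. In whole-liver RNA, fewer cells of a type and less RNA per cell cannot be told apart.

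Among the activators, Bmal1 varied 23.3-fold between low protein rats and 3.53-fold between control rats, and Npas2 varied 12.9-fold and 3.59-fold. Bmal1 had a lowest level of -4.20, a median of -0.51 and a highest level of 0.34 in low protein livers, against -1.48, -0.20 and 0.34 in control livers. Low protein rat 6 lay far below every other rat, the next being low protein rat 5 at -1.52, and the diets overlapped throughout the rest of the range. The diet difference was -0.72 ± 0.69 (SE, n = 6 each; limma adjusted p = 0.605), and without low protein rat 6 it was -0.09. Npas2, which can stand in for CLOCK as the partner of BMAL1, ranged over -3.92, -0.86 and -0.23 in low protein livers and over -1.95, -0.71 and -0.11 in control livers (lowest, median, highest). The same low protein rat 6 was lowest, and the diets overlapped. The difference was -0.49 ± 0.59 (limma adjusted p = 0.693), and it was 0.02 without low protein rat 6.

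Clock, the gene of the partner itself, was measured close to the background. Its tested probe ran at -6.65, -6.48 and -5.06 in low protein livers and at -6.60, -6.45 and -6.01 in control livers (lowest, median, highest), and it was not well above background on 1 low protein array. Low protein rat 3 was highest and control rat 3 next. The difference was 0.14 ± 0.24 (limma adjusted p = 0.797). A second Clock probe was as dim, with a difference of -0.12 ± 0.29 (limma adjusted p = 0.854). The Clock probes ordered the rats differently, since the second probe was highest in low protein rat 2, at -5.36, and lowest in low protein rat 6, at -7.47.

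Cry1 and Per2 encode the 2 repressors of the BMAL1 complexes in the list. Cry1 spanned -2.71, -1.15 and -0.14 in low protein livers, against -2.21, -1.25 and -0.06 in control livers (lowest, median, highest). Rats 1 to 3 of either diet were high, between -0.82 and -0.06, and rats 4 to 6 of either diet were low, between -2.71 and -1.48. The diet difference of Cry1 was -0.15 ± 0.52 (limma adjusted p = 0.908). Per2 spanned -4.22, -3.47 and -1.54 in low protein livers and -3.42, -2.42 and -1.99 in control livers. Of the low protein rats 5 lay below the control median, while rat 6 lay above every control rat. The difference in Per2 was -0.72 ± 0.40 (limma adjusted p = 0.323), and without low protein rat 6 it was -1.06 (adjusted p = 0.0508).

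Nr1d2 and Nr1d1 encode the REV-ERB receptors. Nr1d2 ranged over -0.29, 1.25 and 2.56 in low protein livers, against -0.69, 1.17 and 2.49 in control livers (lowest, median, highest). Rats 4 to 6 of both diets were between 1.95 and 2.56 and rats 1 to 3 of both diets between -0.69 and 0.41, so the diets overlapped almost fully and the rat numbers did not. Its difference was 0.22 ± 0.69 (limma adjusted p = 0.895). Nr1d1 ran at -2.55, -2.14 and -1.39 in low protein livers and at -2.43, -2.10 and -0.76 in control livers. Control rat 6 stood apart at the top, and the difference was -0.04 ± 0.28 (limma adjusted p = 0.958).

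Dbp, a PAR-domain activator of D-box genes, had the highest SD of the 10 genes within diets. Its level was -0.51, 0.82 and 4.00 in low protein livers and -0.33, 0.69 and 3.71 in control livers (lowest, median, highest), a 22.8-fold and a 16.4-fold range. Rat 6 was highest on both diets. The difference was 0.10 ± 0.85 (limma adjusted p = 0.965), with a 95% interval from -1.74 to 1.94. A second Dbp probe that passed the filter ran from -2.56 to 3.90 in low protein livers and from -2.16 to 3.46 in control livers. Its SDs were 2.84 and 2.30, and its difference was 0.24 ± 1.33 (limma adjusted p = 0.942). Tef, the related activator, spanned -1.36, -0.61 and 0.92 in low protein livers, against -1.24, -0.42 and 0.70 in control livers. Rats 4 to 6 again lay above rats 1 to 3 on both diets, and the difference was -0.01 ± 0.45 (limma adjusted p = 0.994).

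Nfil3, which represses the D-box genes that DBP and TEF activate, ran at -3.50, -1.62 and -0.15 in low protein livers and at -1.38, -0.86 and 0.21 in control livers (lowest, median, highest). Low protein rats 4 to 6, at -2.62, -2.24 and -3.50, were below every control rat, while low protein rats 1 to 3 lay within the control range. The difference was -1.01 ± 0.53 (limma adjusted p = 0.303), with a 95% interval from -2.16 to 0.15, and without low protein rat 6 it was -0.64.

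**Figure D1:**
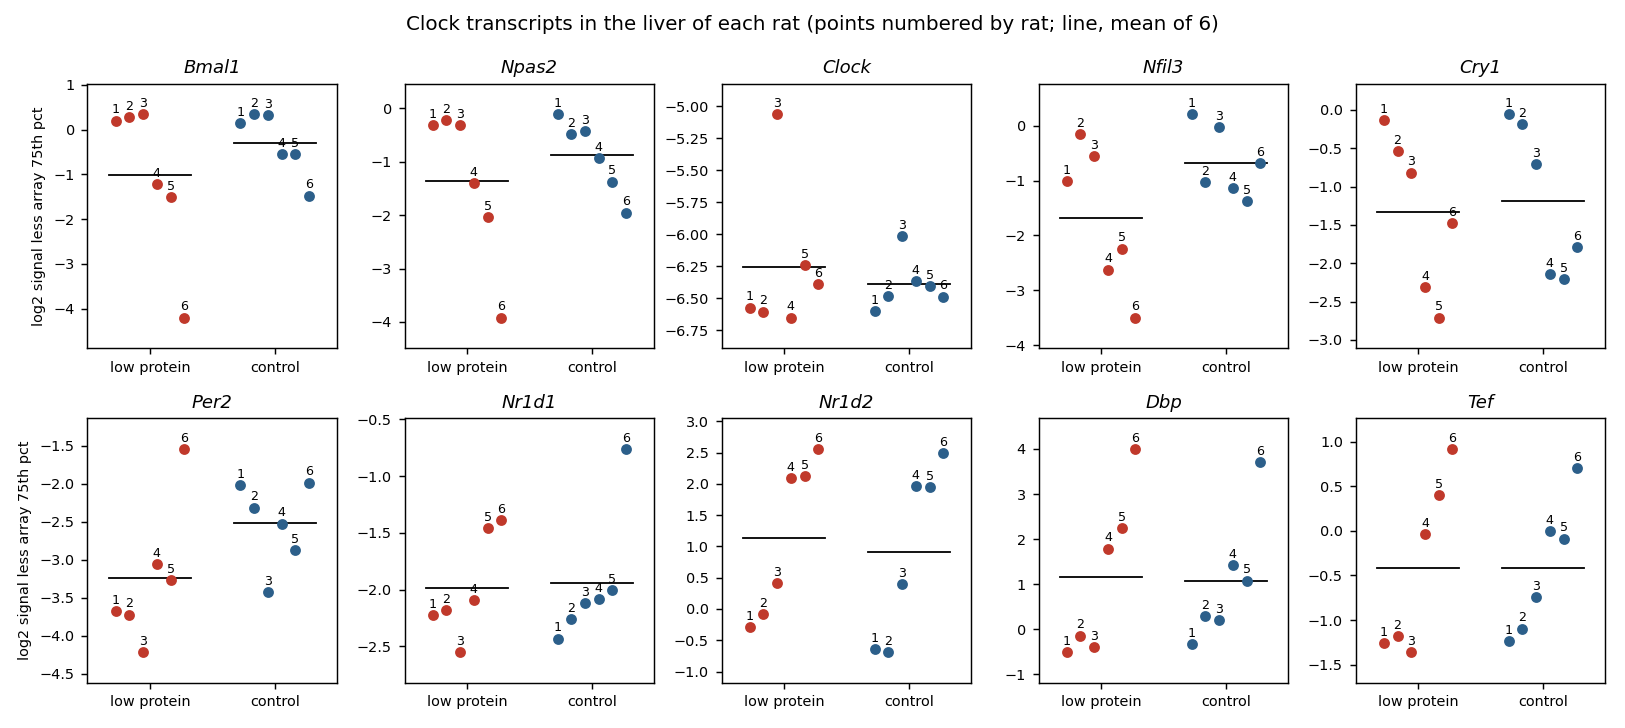
Level of each of the 10 genes (y axis, log2 signal less the array's 75th percentile) in every liver, with low protein rats on the left and control rats on the right of each panel. Points carry the rat's number and the line is the mean of 6; rats 4 to 6 sit apart from rats 1 to 3 on both diets for Nr1d2, Dbp, Tef and Cry1, and low protein rat 6 sits lowest for Bmal1 at -4.20.

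None of the 10 genes passed the test of diet (limma, adjusted p under 0.05), where 6.53% of all tested genes did (3.48% higher and 3.05% lower on low protein). At an unadjusted p under 0.05 the count was 0 of 10 as well, against 21.6% of all genes. For 0 of 10 did the values of the diets not overlap, against 4.98% of all genes. Median differences were -0.09 for the 10 genes and -0.03 for all genes tested. The standard errors of the 10 differences ran from 0.24 to 0.85, against a median of 0.126 over all genes, and the 95% interval of Bmal1 ran from -2.23 to 0.78, or from 0.214-fold to 1.71-fold. A 2-fold difference in at least 1 direction was within the interval for Bmal1, Npas2, Cry1, Per2, Nr1d2, Dbp and Nfil3. Only for Clock, Nr1d1 and Tef did the interval stay inside 1 log2 unit on both sides. These intervals leave rat number out of the model. With rat number as a block the estimates were the same and the SE was 0.11 for Cry1, 0.095 for Nr1d2 and 0.23 for Dbp. It was 0.36 for Bmal1, 0.27 for Npas2, 0.26 for Per2 and 0.41 for Nfil3. The labels do not pair the rats by number.

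With slide as a block, the lowest adjusted p for diet among the 10 genes was 0.203 (limma), for Nfil3. Slide and rat number are partly tied in the low protein group, since slide 2 held only its rats 5 and 6. Of the control group slide 2 held rats 2 and 4. A diet difference within a slide therefore also compares different rat numbers, and the 2 cannot be told apart there. Within slide 1 (4 rats a diet) the Bmal1 difference was 0.29 ± 0.47, and within slide 2 (2 rats a diet) it was -2.75 ± 0.90. Nfil3 differed by -0.62 ± 0.55 within slide 1 and by -1.79 ± 0.42 within slide 2. Per2 differed by -1.09 ± 0.36 within slide 1 and by 0.02 ± 0.57 within slide 2. The lowest limma adjusted p of the 10 was 0.209 within slide 1, for Per2, and 0.280 within slide 2, for Nr1d1; 164 genes of all were called within slide 1 and 12 within slide 2.

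**Figure D2:**
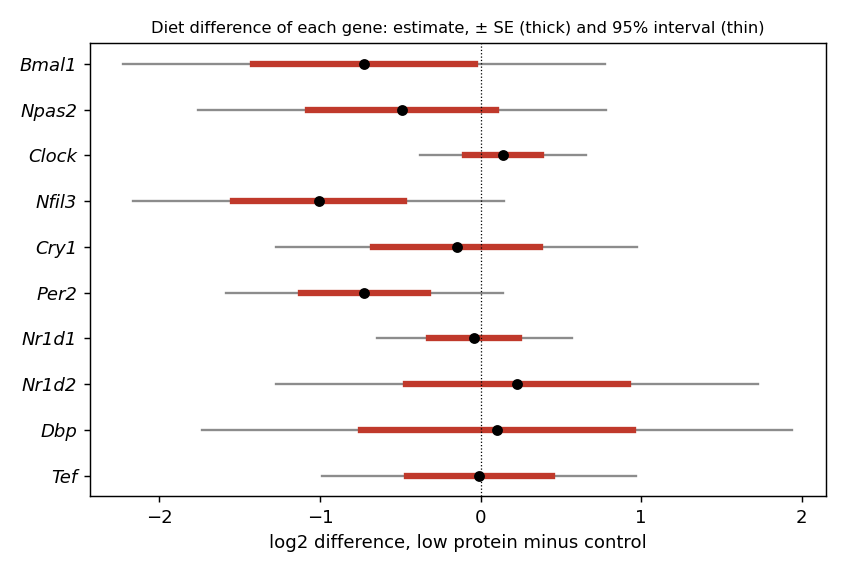
Diet difference of the 10 genes (x axis, log2, low protein minus control; 6 rats per diet), with the estimate as a point, ± 1 SE as a thick bar and the 95% interval as a thin bar. Every interval includes 0, and those of Nfil3 (-2.16 to 0.15) and Per2 (-1.58 to 0.14) lie mostly below it.

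The spread between rats on the same diet was wide for most of these genes. The within-diet SD of the log2 level had a median of 1.01 over the 10 genes and of 0.224 over all genes tested. For 8 of the 10 it lay above percentile 95 of all genes. Dbp was at percentile 99.9 with an SD of 1.64, and Bmal1 and Nr1d2 were at percentile 99.7 with SDs of 1.34 each. Clock, at percentile 87.2, and Nr1d1, at percentile 91.8, were the exceptions. The SD between low protein rats exceeded that between control rats 2.47 times for Bmal1, 2.11 times for Npas2 and 2.05 times for Nfil3, with low protein rat 6 as the lowest value of all 3 genes. For Clock the ratio was 2.99, with low protein rat 3 as the highest value. For Nr1d1 and Nr1d2 the ratio was below 1 (0.770 and 0.893). The difference in spread between the diets was not tested.

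**Figure D3:**
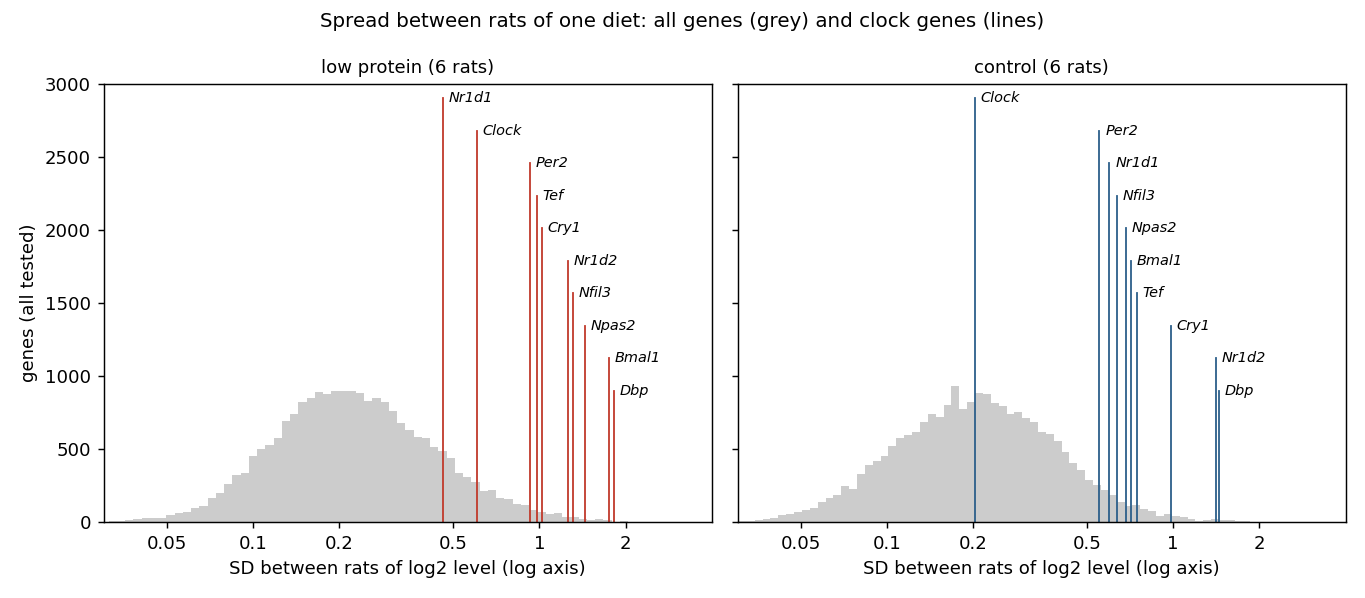
Distribution over all 21874 genes of the SD between rats of one diet (x axis, SD of log2 level, log axis; y axis, number of genes), for low protein rats on the left and control rats on the right. Lines mark the 10 clock genes; Dbp lies far to the right on both diets, at 1.82 in low protein and 1.44 in control livers, and Clock lies within the bulk of genes in control livers at 0.202.

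The spread followed the rat numbers, a split that was noticed in the values and is given without a test. Neither the order nor the time of sampling is given in the sources used here. For 7 of the 10 genes (Bmal1, Npas2, Cry1, Nr1d1, Nr1d2, Dbp and Tef) the values of rats 1 to 3 of both diets did not overlap those of rats 4 to 6 of both diets, where 1.43% of all genes showed such a gap. Bmal1 was between 0.15 and 0.34 in rats 1 to 3 of both diets and between -4.20 and -0.56 in rats 4 to 6. Dbp was between -0.51 and 0.30 in rats 1 to 3 and between 1.08 and 4.00 in rats 4 to 6. For Cry1, Nr1d2 and Tef this gap was also the widest between any neighbouring values of the 12 rats. The second Dbp probe shared this, with rats 1 to 3 up to -2.00 and rats 4 to 6 from 0.63. Clock, Per2 and Nfil3 did not split in this way. Signal strength went along with it on low protein arrays only: the 75th percentile signal was 1233 to 1317 in low protein rats 4 to 6 and 942 to 1139 in low protein rats 1 to 3, but 983 to 1305 in control rats 4 to 6 and 944 to 1045 in control rats 1 to 3. The part of signal strength in the split was not tested.

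The relation of each gene to Bmal1 was read from its slope on the Bmal1 level, with diet in the model. The fit pools both sets of rats, so a slope joins the difference between the sets with that within them. The slope calls below are from this pooled fit, and none of them held with rat number as a block. Of the other 9 genes, 5 passed (limma, adjusted p under 0.05), where 0.759% of all genes (166 of 21873) did; 0.576% of all genes had a positive and 0.183% a negative slope past the threshold. Npas2 rose with Bmal1 by 0.83 ± 0.05 per log2 unit (SE; limma adjusted p = 3.15e-05), and Nfil3 rose by 0.64 ± 0.13 (0.0485). Dbp fell by 1.14 ± 0.14 per unit of Bmal1 (limma adjusted p = 0.0054), Tef fell by 0.59 ± 0.08 (0.015) and Per2 fell by 0.48 ± 0.09 (0.0411). Slopes that did not pass were -0.78 ± 0.19 for Nr1d2, -0.30 ± 0.08 for Nr1d1, 0.40 ± 0.19 for Cry1 and 0.08 ± 0.10 for Clock, with limma adjusted p of 0.0923, 0.133, 0.361 and 0.754. The Clock probes differed here. Over the 12 rats, diet-centred Pearson's r with Bmal1 was 0.24 for the tested probe and 0.81 for the second. The second was well above background on all 12 arrays, and low protein rat 6 was lowest on it as for Bmal1. No slope is given for that probe.

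Npas2, Dbp and Tef passed with each of the 12 arrays left out in turn. Nfil3 kept its call only without low protein rat 4 or control rat 2, and Per2 only without control rat 1, 2 or 5. Without low protein rat 6, whose gap to the next rat was 59.1% of the range of Bmal1, the slopes were 0.89 for Npas2, -1.65 for Dbp and -0.94 for Tef, that of Cry1 was 1.14, that of Nr1d1 was -0.53, and that of Nr1d2 was -1.47 and passed (limma adjusted p = 0.0402). Leaving out a low protein array moved the number of genes called in all to 102 (rat 1), 44 (rat 2), 92 (rat 3), 89 (rat 5) or 34 (rat 6). Leaving out a control array moved it to 86 (rat 2), 73 (rat 3), 101 (rat 5) or 63 (rat 6). With slide as a block 44 genes passed, Npas2 and Dbp among them, and Tef had an adjusted p of 0.0506. With rat number as a block 0 genes passed. The slope was then 0.73 ± 0.09 for Npas2 (limma adjusted p = 0.435) and -0.30 ± 0.22 for Dbp (0.813). Those of Cry1, Nr1d1 and Nr1d2 changed sign, to -0.16, 0.18 and 0.093. Within slide 1 alone none of the 9 genes passed, with slopes of 0.88 for Npas2, -1.80 for Dbp and -0.91 for Tef.

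No gene of 21873 had a slope on Bmal1 that differed between the diets by limma (adjusted p under 0.05), a share of 0%. At an unadjusted p under 0.05 the count was 4 of 9 genes (Nr1d1, Nr1d2, Dbp and Tef), against 5.45% of all genes. For Dbp the slope was 0.92 ± 0.30 less negative in low protein than in control livers (limma adjusted p = 0.617), and without control rat 6 this difference was 0.30. Without that rat it was 0.0075 for Nr1d1, against 0.52 with it. For Nr1d2 and Tef the difference grew without control rat 6, from 1.15 to 1.99 and from 0.48 to 0.59. Without low protein rat 6 it was 0.52 for Nr1d2 and 0.10 for Tef. Low protein rat 6, with Bmal1 at -4.20, and control rat 6, with Bmal1 at -1.48, had nearly the same Dbp level.

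**Figure D4:**
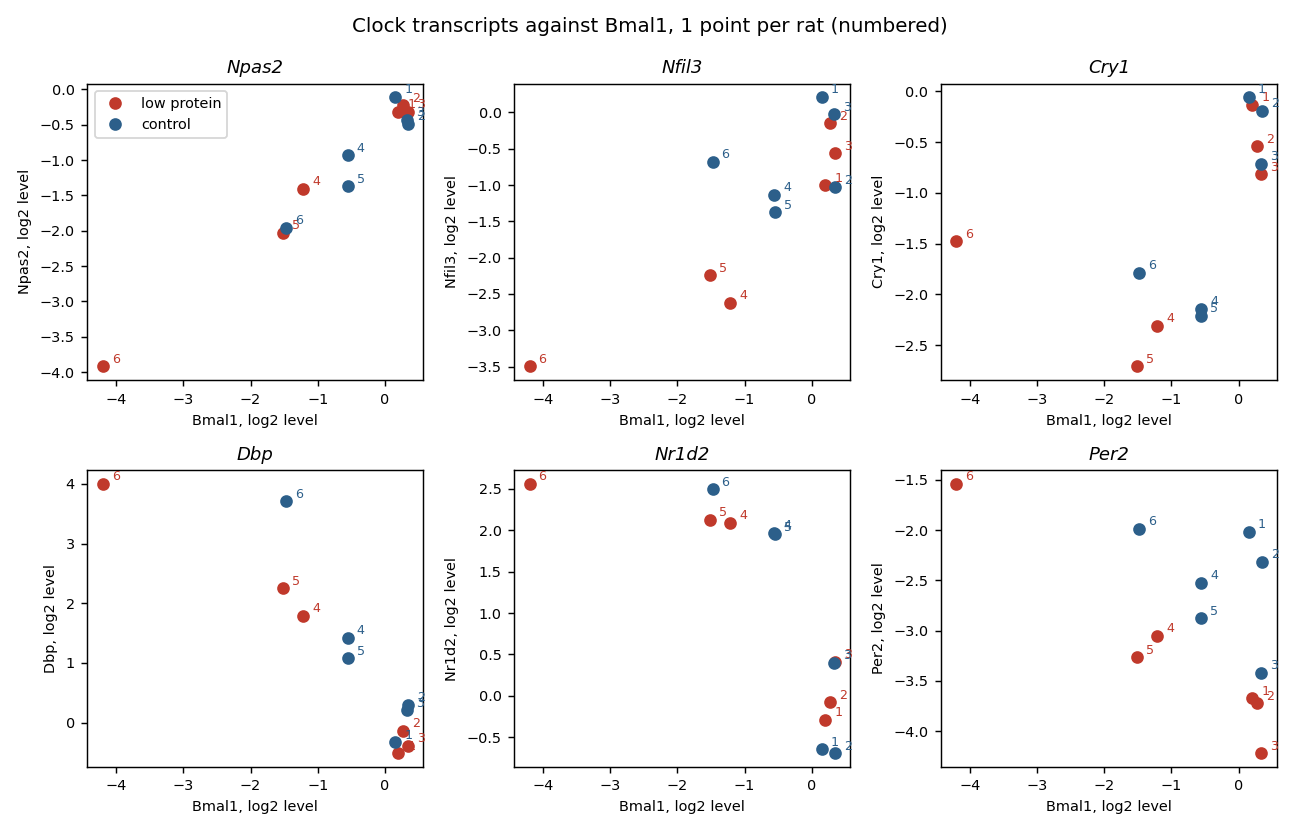
Levels of 6 clock genes (y axis, log2) against Bmal1 (x axis, log2) in each liver, with low protein rats in red and control rats in blue and the rat number beside each point. Npas2 rises with Bmal1 and Dbp falls with it (slopes of 0.83 and -1.14), and low protein rat 6 alone lies below a Bmal1 level of -1.52.

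Because the 12 rats fall into these 2 sets, no pooled r is given for pairs of the 10 genes, apart from Clock with Bmal1 above. Pairs were correlated within each set of 6 rats, 3 of each diet, a choice made after seeing the data. Values in a set were neither centred nor permuted within diet, so a diet difference can enter each r. None of the 90 relations passed an exact two-sided permutation test of 720 orders after Benjamini-Hochberg adjustment over the 90. At an unadjusted p under 0.05 there were 14 of 45 pairs in rats 4 to 6 and 3 of 45 in rats 1 to 3. In rats 4 to 6, Bmal1 and Npas2 had Pearson's r of 0.983 (exact permutation p = 0.00278, adjusted 0.0625) and Spearman's rho of 0.943 (exact permutation p = 0.0167). Nr1d2 and Dbp had r of 0.994 (exact permutation p = 0.00139, the smallest that 720 orders can give, adjusted 0.0625) and rho of 1. For Bmal1 and Dbp r was -0.811 (exact permutation p = 0.00417, adjusted 0.0625) and rho -0.943. Leaving out the 2 rats farthest from the median of the first gene gave r of 0.965 for Bmal1 with Npas2, 0.954 for Nr1d2 with Dbp and -0.697 for Bmal1 with Dbp.

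Cry1 and Per2 also ran together in rats 4 to 6, with r of 0.972 (exact permutation p = 0.00139, adjusted 0.0625) and rho of 1, and r was 0.979 without the 2 farthest rats. In rats 1 to 3 their r was 0.737 (exact permutation p = 0.119). Cry1 and Nr1d2 had r of -0.936 in rats 1 to 3 (exact permutation p = 0.0153, adjusted 0.115) and of 0.746 in rats 4 to 6 (exact permutation p = 0.0889), and this difference between the sets was not tested. In rats 1 to 3, where Bmal1 lay between 0.15 and 0.34, Bmal1 and Dbp had r of 0.618 (exact permutation p = 0.179).

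The diets were also compared at equal Bmal1 level, in a model added after seeing the data. Per2 was then lower in low protein livers, with a difference of -1.07 ± 0.23 (log2, SE; limma adjusted p = 0.0226). It was the 1 gene of 9 called, where 6.25% of all genes were. The estimate ran from -1.18 to -0.94 with each array left out, and the call was lost without low protein rat 2 (adjusted p = 0.0546) or low protein rat 3 (0.0542). Dbp differed by -0.72 ± 0.35 and Tef by -0.44 ± 0.21 in this model, with limma adjusted p of 0.260 and 0.270, and Npas2 by 0.11 ± 0.12.

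Of 34 other clock genes and clock regulators listed, 23 were tested, and 0 rose and 0 fell with diet by limma. At an unadjusted limma p under 0.05 there were 3 of 23, against 21.6% of all genes. The lowest p belonged to Nampt, the rate-limiting enzyme of NAD salvage, at 0.58 ± 0.21 (adjusted p = 0.125), and to Gsk3b, a kinase of clock proteins, at -0.19 ± 0.08 (adjusted p = 0.191). Against Bmal1, 6 of the 23 had a slope with an unadjusted limma p under 0.05, where 14.4% of all genes did. Past the threshold, where 0.576% of all genes had a positive and 0.183% a negative slope, the list had 0 positive and 2 negative slopes. These were Cry2, the paralogue of Cry1, at -0.40 ± 0.08 (limma adjusted p = 0.0439) and Timeless, a replication fork factor, at -0.25 ± 0.05 (0.0363). Timeless lost its call without low protein rat 1, 3, 5 or 6 or control rat 2, 3 or 6, and Cry2 kept its call only without control rat 1 or 5. Per1 had a slope of -0.05 ± 0.23 and Per3 of -0.0046 ± 0.06. The median within-diet SD of this list was 0.262.

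Of 36 listed liver genes under clock control, 33 were tested, of which 3 rose and 2 fell with the diet. Of all genes 3.48% rose and 3.05% fell. At an unadjusted limma p under 0.05 for diet there were 8 of 33, against 21.6% of all genes. Fgf21, the hepatokine that responds to protein restriction, lay between 0.73 and 3.14 in low protein livers and between -2.55 and -0.79 in control livers. It rose by 4.09 ± 0.38 (limma adjusted p = 0.000111), with no overlap between the diets, and its slope on Bmal1 was 0.00 ± 0.16. Nr1i3, the nuclear receptor CAR, rose by 1.01 ± 0.20 (limma adjusted p = 0.0101) and Gys2, liver glycogen synthase, by 0.59 ± 0.16 (0.0461). Cyp2a1, a testosterone hydroxylase, fell by 0.54 ± 0.07 (limma adjusted p = 0.00113), and Tspo, a mitochondrial outer membrane protein, fell by 0.61 ± 0.09 (0.00229). Slopes on Bmal1 passed for 3 other genes of the list, all positive: Tubb2a (0.52 ± 0.06), Lonrf3 (0.83 ± 0.11) and Insig2 (0.29 ± 0.05), with limma adjusted p of 0.0054, 0.00977 and 0.0369. Of all genes 0.576% had a positive slope past the threshold. At an unadjusted limma p under 0.05 there were 13 of 33 slopes, against 14.4% of all genes. Gys2 kept its call only without low protein rat 3 or control rat 6, Tubb2a lost its call without low protein rat 6, and Insig2 lost it without low protein rat 1, 3, 5 or 6 or control rat 2, 3, 5 or 6. None of the 5 genes that changed with diet had a slope past the threshold, and none of the 3 with such a slope changed with diet. Gys2 lay near the threshold on both, with a slope of -0.18 ± 0.04 (limma adjusted p = 0.0723).

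Of 16 glucocorticoid-responsive genes listed, 15 were tested, with 0 up and 2 down on the low protein diet and no slope on Bmal1 past the threshold (3 of 15 at an unadjusted p under 0.05, against 14.4% of all genes). The shares of all genes called for diet were 3.48% up and 3.05% down. At an unadjusted limma p under 0.05 for diet there were 6 of 15, against 21.6% of all genes. Sds, serine dehydratase, lay between -5.45 and -2.56 in low protein livers and between -0.56 and 4.10 in control livers, and it fell by 5.19 ± 0.74 (limma adjusted p = 0.00194). Tat, tyrosine aminotransferase, fell by 2.02 ± 0.32 (limma adjusted p = 0.00361). Both are enzymes of amino acid breakdown. Of 15 temperature- and serum-responsive genes, 12 were tested and 0 changed with diet by limma. At an unadjusted limma p under 0.05, which 21.6% of all genes had, there were 2 of 12. These were Hspa8, a constitutive chaperone, at 0.35 ± 0.13 (adjusted p = 0.132) and Cirbp, a cold-inducible RNA-binding protein, at -0.25 ± 0.10 (adjusted p = 0.179). Rbm3, another cold-inducible RNA-binding protein, had a slope of -0.22 ± 0.04 on Bmal1 (limma adjusted p = 0.0416). That call was lost with any 1 of the 12 arrays left out. Rbm3 was the 1 gene of these 12 with a slope past the threshold, where 0.183% of all genes had a negative one. At an unadjusted limma p under 0.05 there were 2 of 12 slopes, against 14.4% of all genes.

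Markers of liver cell types were present as the tissue label states. The 5 hepatocyte markers had a mean level between 6.42 and 6.726 in low protein livers. In control livers it lay between 6.731 and 6.95, so the diets narrowly did not overlap. Of these 5 markers 1 was called for diet by limma, where 3.05% of all genes fell. This was Apoa1, which fell by 0.84 ± 0.14 (limma adjusted p = 0.00387). At an unadjusted limma p under 0.05 there were 2 of 5, against 21.6% of all genes, and the median difference of the 5 was -0.15. The 6 macrophage markers averaged between -0.79 and -0.43 in low protein livers and between -0.89 and 0.09 in control livers. Of these markers 0 were called for diet by limma. At an unadjusted limma p under 0.05 there were 4 of 6, against 21.6% of all genes. No tested hepatocyte, macrophage, stellate, endothelial, cholangiocyte or lymphocyte marker had a slope on Bmal1 past the threshold by limma; at an unadjusted p under 0.05 there were 2 macrophage markers and 1 each of the stellate, cholangiocyte and lymphocyte lists, where 14.4% of all genes reached it.

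Outside the 10 clock genes, only tested genes with a symbol that is not a placeholder name were ranked by likeness to Bmal1. Among these, the diet-centred pattern over the 12 rats was most like that of Bmal1 for Clpx, Lsm11, Dppa3, Znrf2 and Pnkd. Their Pearson's r was 0.979, 0.958, 0.955, 0.950 and 0.949, given as a description. These r values pool both sets of rats. Clpx, the unfoldase subunit of a mitochondrial protease, lay between 2.05 and 3.55 in low protein livers and between 2.36 and 3.21 in control livers. Its lowest rat on both diets was rat 6. Znrf2 had no value in low protein rat 5, whose spot was marked an outlier. The most opposite among the ranked genes were Ptpn21 (-0.967), Nceh1 (-0.907), Ccne1 (-0.903), Mlycd (-0.899) and Ranbp1 (-0.897). Ptpn21, a protein tyrosine phosphatase, lay between 1.00 and 2.56 in low protein livers and between 0.62 and 1.47 in control livers, and was highest in rat 6 on both diets. Without low protein rat 6, r was 0.965 for Clpx and -0.895 for Ptpn21. Without centring on diet, r within rats 4 to 6 was 0.806 and -0.991, and within rats 1 to 3 it was 0.042 and 0.340. These r values share the arrays and their scaling.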

How the data were processed

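Values are from 12 single-colour arrays, 6 low protein and 6 control livers, grouped by their labels. Scans were quantified by the authors in Agilent Feature Extraction (version 12.0.3.1 per the file headers). Its processed signal, deposited as linear intensity, is background-corrected and carries no scaling from array to array. The authors' deposited table of values holds the raw median intensity (identical at 100% of spots). The headers name an older rat genome build, so no probe coordinates are given, and genes were named through each probe's RefSeq accession (GRCr8 table; 46.5% of 45598 probes matched).

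Here, the array's 75th percentile over non-control spots was subtracted from each log2 processed signal, with outlier spots (453 to 739 per array) set missing. A probe was kept if 5 or more of the 6 arrays of either diet had it well above background, and the brightest probe of a gene was tested. Differences and slopes on Bmal1 were tested with limma 3.58.1 (R 4.3.3; lmFit, eBayes, two-sided) over all genes with Benjamini-Hochberg adjustment, and every adjusted p without another test named is from limma. Pairs used exact permutation (Python 3.11.15, numpy 2.4.6). The number of arrays limits precision. The labels number the samples of a diet, taken here as separate rats, and p-values measure the spread between these samples. The fits were run on simulated data, drawn independently for each gene and array and without the split by rat number. That run therefore says nothing of how the split affects the slope calls.

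The 10 genes, the gene lists and the tests were chosen with earlier results of these data known. Named besides the 10 were up to 4 genes per list with an adjusted p under 0.05 for diet, or else the 2 with the smallest p. Also named were the 5 genes most like and the 5 most opposite to Bmal1, among tested genes with a symbol that is not a placeholder. Gys2, Apoa1, Cry2, Timeless, Tubb2a, Lonrf3, Insig2, Rbm3, Per1 and Per3 were named after their values were seen. Alternatives covered scaling, background correction, the deposited values, the dim filter, outlier spots, probes per gene, spread estimate, slide, rat number, left-out arrays and the Bmal1 covariate. Urine, plasma and PCR data were not analysed here.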

Additional observations from a re-analysis of the deposited data

Results flagged for a closer look

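Groups of 6 rats, in 38 genes and 2 diets, were searched for a rat far from the others of its diet by Dixon's ratio. Of the 76 groups, that of Znrf2 in low protein livers was left out, since a value was missing. Chance flags about 1 in 20 groups where genes are picked without regard to their values, and 9 values were found. Some genes here were picked as most like or most opposite to Bmal1, for which low protein rat 6 lay far off. The count therefore cannot be set against that rate. Among the clock genes, Clock in low protein rat 3 was at -5.06, with the next rat at -6.24, on a probe close to background. Nr1d1 in control rat 6 was at -0.761, with the next rat at -2.00. Ccne1, cyclin E1, stood highest in rat 6 of both diets, at -2.08 in low protein rat 6 and -2.92 in control rat 6. Ptpn21 was at 2.56 in low protein rat 6, with the next rat at 1.47. Nr1i3 in low protein rat 3 was lowest of its diet at 0.268. Cyp2a1 in control rat 3 was lowest at 2.57, Tspo in control rat 1 was lowest at -0.474, and Gys2 in control rat 6 was highest at 4.19.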

How the results depend on the processing

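Of the 10 clock genes, 0 were called for diet under each alternative run except the Bmal1 covariate (1, Per2). The count of all genes called for diet, 1429, was 891 without scaling, 618 without the dim filter, 164 on slide 1, 12 on slide 2 and 856 to 1307 with an array left out (856 without control rat 3). Without scaling the median of all genes shifted by 0.13 and 76.2% of called genes were higher, against 53.3%. The count of slopes on Bmal1, 166, was 26 without the dim filter, 44 with slide as a block, 2 on slide 1, and 34 to 156 with an array left out. For gene pairs, 27 of 45 passed over all 12 rats (23 to 28 with an array left out), and 0 within rats 1 to 3 and 0 within rats 4 to 6. These counts are not alike in reach, since a set has 6 rats and its p were adjusted over 90 relations. Of the 27, 14 had the same sign within rats 1 to 3 and 24 within rats 4 to 6. The r over 12 rats was of diet-centred values, while r within a set was not centred.

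Uncalled diet differences changed sign as follows; the cause was not tested. Without scaling, Nr1d1 was 0.092 and Tef 0.12; with normexp, run on the median signal, 0.034 and 0.0020; with the deposited values Tef was 0.0056. Clock was -0.12 under the filter on all 12 arrays, through its second probe. On slide 1, Bmal1 was 0.29, Npas2 0.40, Cry1 0.24, Nr1d2 -0.52 and Dbp -0.98. On slide 2, Per2 was 0.016, Nr1d1 0.75 and Tef 1.21. At equal Bmal1, Npas2 was 0.11, Cry1 0.14, Nr1d2 -0.34 and Dbp -0.72. With an array left out, differences ran from -0.10 to 0.22 for Clock, -0.39 to 0.13 for Cry1, -0.47 to 0.63 for Dbp, -0.72 to 0.020 for Npas2, -0.16 to 0.20 for Nr1d1, -0.10 to 0.54 for Nr1d2 and -0.28 to 0.21 for Tef. The Clock slope ran from -0.030 to 0.16. Slope differences between diets ran from -0.13 to 0.16 for Clock, -1.83 to 0.16 for Cry1 and -0.34 to 0.76 for Nfil3.

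Rat numbers were not taken to pair the rats, since rats of one number correlated over all genes at 0.03 to 0.26, below 0.1 for rat 5. Over the 10 genes the same correlation was 0.697 to 0.952. With the replicate block (rat number), 1411 genes and 0 of the 10 were called for diet. Under that block 0 genes had a slope on Bmal1, and those of Cry1, Nr1d1, Nr1d2 and Rbm3 were -0.16, 0.18, 0.093 and 0.024.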
